A study of Mus musculus with 54 samples.

Results

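The Mef2 transcription factors examined here were Mef2a, Mef2c, and Mef2d, found by their NCBI gene numbers in all 27 deposited tables. They are 3 of the 19653 genes listed in at least 1 table, of which 17855 carry an NCBI number and the others were predicted from the reads. RNA was sequenced from H2K mouse myogenic progenitors, which are conditionally immortalised muscle precursor cells grown with γ-interferon and differentiated in horse serum. Of the 6 lines, wildtype progenitors carry intact emerin and EMD-/y progenitors lack this inner nuclear membrane protein. The other lines are EMD-/y progenitors transduced by lentivirus with wildtype emerin (+EMD) or with emerin carrying S54F, Δ95–99, or Q133H, changes that cause Emery-Dreifuss muscular dystrophy. All 4 transduced lines therefore share the EMD-/y background. They were selected and grown in puromycin, at a concentration that differed between lines. For RNA, the mutant lines were seeded at another density than wildtype and EMD-/y progenitors, and the methods name no such density for +EMD. The introduced emerin cannot be told apart from these differences in a comparison with wildtype. Each line was collected at days 0, 1, and 2 of differentiation, which gave 54 samples or 3 labelled replicates for each of the 18 groups.

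The MEF2 proteins are MADS-box transcription factors that bind an A/T-rich site in the promoters and enhancers of muscle genes. They act together with the myogenic bHLH factors MyoD and myogenin, are held inactive by class IIa histone deacetylases, and are activated by p38 and calcium-dependent signalling through CaM kinases and calcineurin. Mef2a and Mef2d are widely expressed, whereas Mef2c is induced during skeletal muscle differentiation and is itself a target of the myogenic factors. Emerin binds lamins and the corepressor-associated deacetylase HDAC3, and the study asked how emerin mutations alter the transcriptome as progenitors differentiate.

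The binding site itself is shown first, because a member carries a match at an annotated start within its gene. The MEF2 consensus was searched on both strands of RefSeq promoter windows (GRCm38.p6) that run from 250 bases before to 50 bases after an annotated start. No other motif was searched, and TATA-like letters can also match. The capitals mark the match in each 30-base stretch, written 5′ to 3′ on the strand of the gene. Mef2a is followed by 3 of the listed muscle genes whose window held a match.
Mef2a: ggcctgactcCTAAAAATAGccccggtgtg
Xirp2: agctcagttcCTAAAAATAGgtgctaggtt
Srpk3: agctgggaggCTATTTATAAaggcgagtga
Pgam2: ttttgtgagaCTATTTTTAAgttcagctcc
The Mef2a stretch is chr7:67372841-67372870 on the minus strand, and its match begins 2 bases before the start of the only Mef2a window. That start lies inside the gene, whose span on the minus strand begins at 67376456. It is therefore not the most upstream start of Mef2a, around which no window was searched. The other stretches are chr2:67445918-67445947 (Xirp2, plus strand), chrX:73774328-73774357 (Srpk3, plus strand), and chr11:5803857-5803886 (Pgam2, minus strand). The match begins 74 bases before the start in Xirp2, 67 in Srpk3, and 80 in Pgam2. Mef2a and Xirp2 share the same 10 matching letters. The Mef2d window and the 3 Mef2c windows held no match. Of all 32851 windows, 1047 (3.19%) held at least 1 match. By gene, 1001 of the 27025 genes with a window (3.70%) had a match, as did 4 of the 12 in the muscle list. That list was made of genes with known MEF2 sites, so its share is not an independent result. A match describes these letters only and is not a site shown to be bound.

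Mef2a (NCBI gene 17258) lies at chr7:67231163-67376456, Mef2c (17260) at chr13:83504017-83667079, and Mef2d (17261) at chr3:88141941-88172091 in RefSeq on GRCm38.p6, the assembly also called mm10. The Mef2a gene overlaps Lysmd4 on the opposite strand over 76168 bases and 2 unconfirmed transcribed loci on its own strand. The Mef2d gene shares 531 bases with the antisense gene 1700113A16Rik. Whether strand was used in counting is not given in the sources used here, so reads of these partners cannot be told apart. No transcript of a Mef2 gene shared a stretch of 100 bases at 97% identity with another Mef2 gene. Outside the family, Mef2a shared such a stretch with Lysmd4 (302 bases) and Hps3 (142 bases), and Mef2d with 1700113A16Rik (531 bases). Mef2c shared none.

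The tables hold the authors' mean of normalized counts per group and no values per sample, so every mean is given without a spread between replicates and no difference was tested. A gene was taken as past the threshold when its means differed at least 2-fold, that is by 1 on the log2 scale after adding 1 to both means. Genes with a higher mean of at least 10 entered the background. These were between 13118 and 13593 genes per table, and the means of a group summed to between 16719491 and 21128040. For levels over all groups, each mean was scaled to a column sum of 1000000 (abbreviated CPM), and the median over the tables holding the group was taken. Emd, the gene deleted in the background, had means between 987 and 1962 in wildtype progenitors and between 0.677 and 3.52 in the other lines in the tables against wildtype, so the rows of Emd do not show the introduced emerin.

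Mef2a was the most abundant member in all 18 groups when levels were divided by transcript length. In wildtype progenitors at day 0 it stood at 52.2 CPM per kilobase, against 29.9 for Mef2d and 12.2 for Mef2c. Its share of the 3 members' sum ranged from 43.9% in EMD-/y progenitors at day 2 to 77.3% in +EMD progenitors at day 1. The share of Mef2c varied most as a fold, while that of Mef2a spanned slightly more percentage points. The Mef2c share was 24.6% in wildtype progenitors at day 2, 31.9% in EMD-/y, and 33.4% in S54F, but 8.01% in Δ95–99, 14.9% in Q133H, and 9.69% in +EMD progenitors on that day. At day 1 the share of Mef2c was 0.796% in Δ95–99 and 1.10% in +EMD progenitors, compared with 12.9% in wildtype. Mef2b, the remaining family member, lay between 0.00923 and 0.0885 CPM in every group and did not reach the background threshold in any table.

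**Figure D1:**
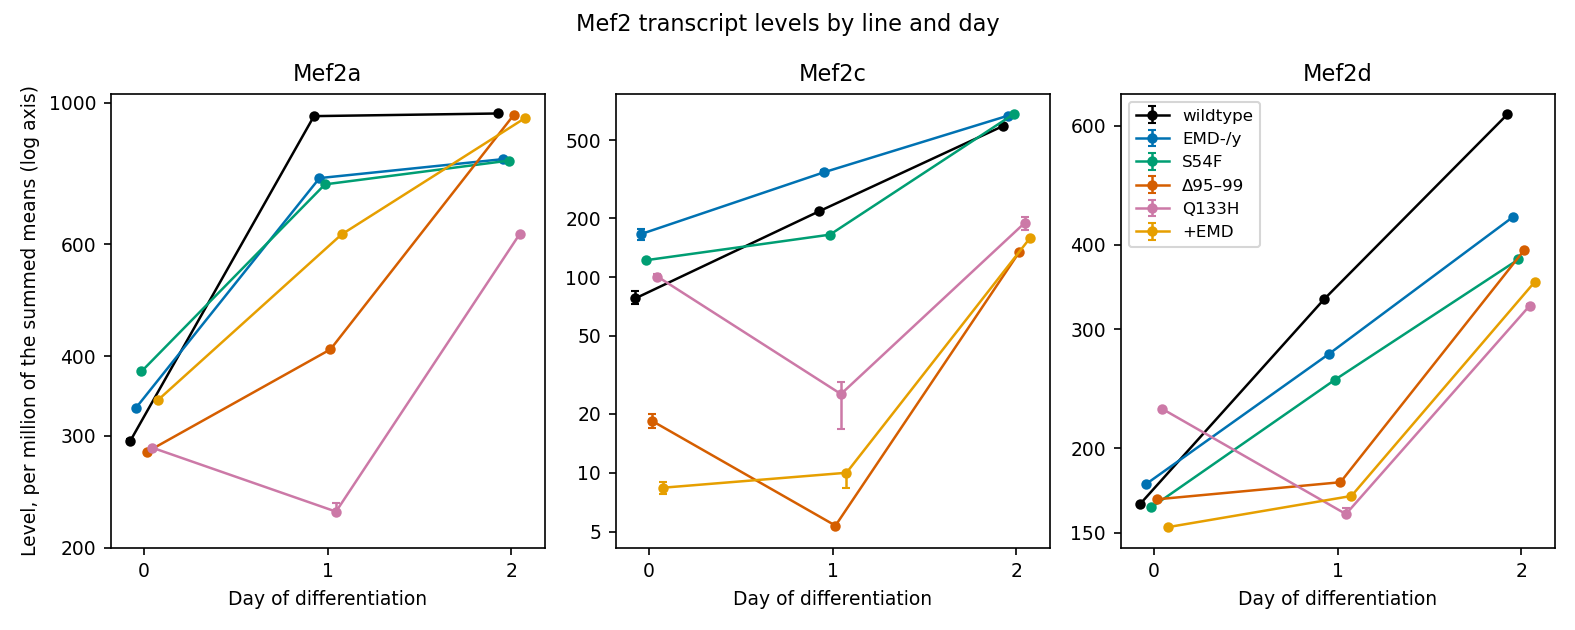
Levels of Mef2a, Mef2c, and Mef2d in CPM, the means scaled to a column sum of 1000000 (log axes that differ between panels) by day of differentiation, with 1 line per progenitor line; points are medians over the deposited tables that hold the group and bars the lowest and highest of those tables, not replicate error. Mef2c spans 5.36 to 680 CPM, while Mef2a spans 228 to 962 and Mef2d 153 to 624.

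Levels of Mef2a ranged 4.22-fold over the 18 groups and those of Mef2d 4.09-fold, whereas those of Mef2c ranged 127-fold. Because tables were normalized separately, these levels compare groups across tables only approximately. The lowest Mef2a level was 228 CPM in Q133H progenitors at day 1, the only group below all 6 groups of day 0. The highest were 962 in wildtype, 958 in Δ95–99, and 947 in +EMD progenitors at day 2, with wildtype at day 1 among them at 953. The ranges over tables overlapped for a single pair of neighbours in the order, +EMD at day 1 and Q133H at day 2, both near 621 and 622 CPM. For Mef2d the order ran from 153 in +EMD at day 0 to 624 in wildtype at day 2, and no neighbours overlapped. EMD-/y progenitors at day 2 had the second-highest Mef2d level, 440 CPM. The spread between replicates is unknown, so neighbours in these orders may not differ beyond it.

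Mef2c formed the widest order. The 5 lowest groups were Δ95–99 at day 1 (5.36 CPM), +EMD at day 0 (8.37), +EMD at day 1 (9.98), Δ95–99 at day 0 (18.4), and Q133H at day 1 (25.2). The next group, wildtype at day 0, stood at 77.8. The 3 highest were S54F (680), EMD-/y (668), and wildtype (590) at day 2. The table ranges overlapped between +EMD at days 0 and 1 and between Δ95–99 at day 0 and Q133H at day 1. The range of EMD-/y at day 0 overlapped those of +EMD at day 2, S54F at day 1, and Q133H at day 2.

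In wildtype progenitors all 3 members rose at least 2-fold in the first day, when 22.8% of genes passed that threshold in either direction. The mean of Mef2a went from 5326 to 17574 normalized counts, a log2 ratio of 1.72. Mef2c went from 1427 to 3930 (log2 ratio 1.46) and Mef2d from 2987 to 6123 (log2 ratio 1.04). From day 1 to day 2, when 19.9% of genes passed, Mef2c and Mef2d did and Mef2a did not. Mef2c went from 3741 to 11539 (log2 ratio 1.62) and Mef2d from 5710 to 12224 (log2 ratio 1.10). Mef2a went from 16369 to 18838, with a log2 ratio of 0.20. Wildtype progenitors thus had nearly their full Mef2a level by day 1, whereas Mef2c and Mef2d went on rising. Scaled to the sum of the column, the log2 ratio of Mef2d was just under the threshold in the first day (1.00 after rounding) and 0.91 in the second, so neither of its calls holds under that scaling.

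EMD-/y progenitors began with more Mef2c than wildtype. At day 0 the mean was 1573 in wildtype and 2901 in EMD-/y progenitors, a log2 ratio of 0.88, which was higher than that of 93.9% of genes but under the 2-fold threshold. This call depends on the table, because the log2 ratio ranged from 0.87 to 1.28 over the tables that hold these groups, and the median levels of 77.8 and 166 CPM differ by more than 2-fold. The log2 ratio was 0.66 at day 1 (3978 against 6271) and 0.24 at day 2 (10644 against 12583). Mef2a and Mef2d differed from wildtype by at most 0.45 in size on the log2 scale on all days. None of the 3 members passed 2-fold at day 0, 1, or 2, when 8.77%, 7.42%, and 7.63% of genes did. Mef2a was lower at day 1 (17261 in wildtype, 13904 in EMD-/y) and Mef2d was lowest relative to wildtype at day 2 (11253 against 8258, log2 ratio -0.45).

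During the first day in EMD-/y progenitors Mef2a rose from 6042 to 14135 (log2 ratio 1.23), while 21.4% of genes passed 2-fold in either direction. Mef2c had a log2 ratio of 0.95, with a range of 0.93 to 1.18 over tables that crosses the threshold, and Mef2d of 0.67. In the second day 18.6% of genes passed, and among the members only Mef2c did, from 5887 to 13115 (log2 ratio 1.16). This call is lost when means are scaled to the sum of the column (log2 ratio 0.92), where the median of all genes moves by -0.24. Mef2d had a log2 ratio of 0.91 and Mef2a of 0.34.

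S54F progenitors were the transduced line in which the members lay nearest to wildtype. None of the members passed 2-fold at day 0, 1, or 2, against 11.9%, 12% and 10.6% of genes. Mef2c had means of 1414 in wildtype and 2160 in S54F at day 0 (log2 ratio 0.61), 4119 and 3068 at day 1 (-0.43), and 10929 and 12932 at day 2 (0.24). Mef2c was thus above wildtype at days 0 and 2 and below it at day 1. Mef2d moved further below wildtype with time, with log2 ratios of -0.05, -0.43, and -0.67. In the first day Mef2a rose from 7015 to 14044, just past the threshold (log2 ratio 1.00, or 0.97 when scaled to the sum of the column). Mef2c had a log2 ratio of 0.44, and 16.6% of genes passed. In the second day Mef2c rose 4.97-fold, from 2889 to 14373, among 20.5% of genes that passed in either direction. Mef2a (0.39) and Mef2d (0.86) did not pass.

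**Figure D2:**
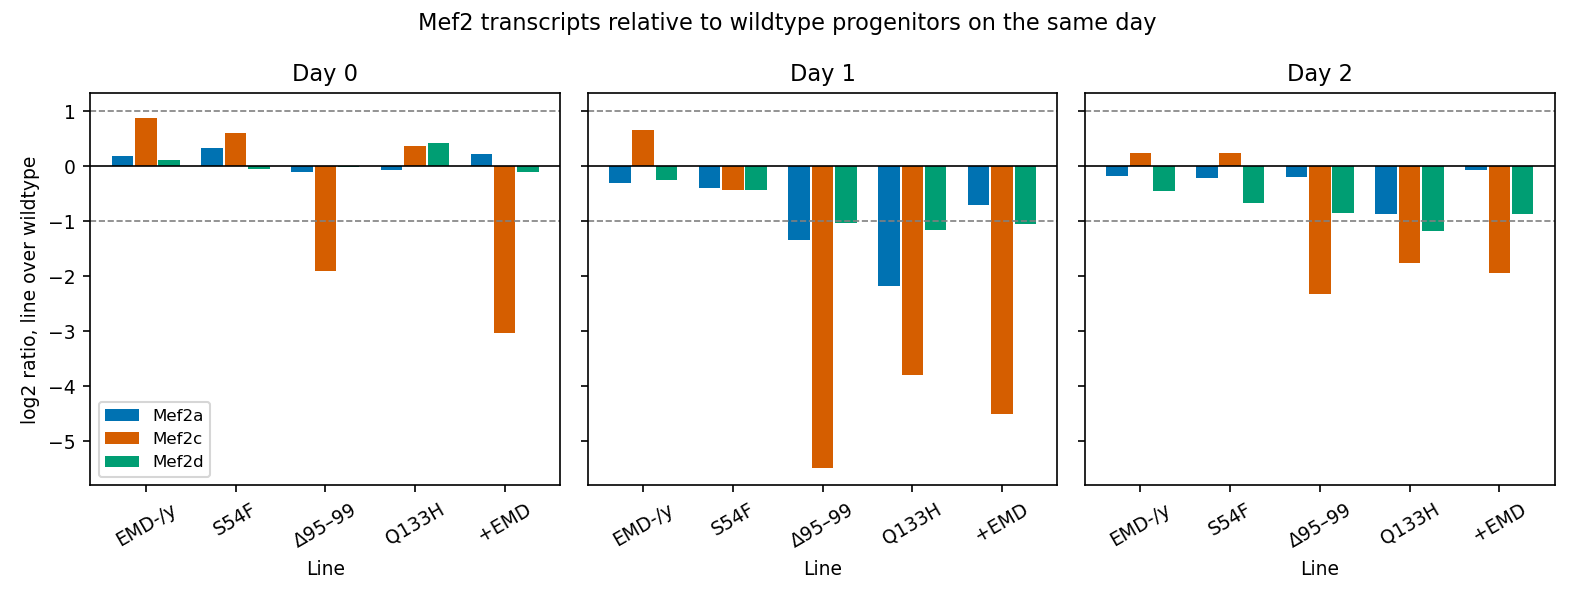
Bars give the log2 ratio of the authors' group means, line over wildtype on the same day, for Mef2a, Mef2c, and Mef2d; dashed lines mark 2-fold in either direction, and there are no error bars because the tables hold no values per sample. Mef2c is past 2-fold below wildtype on all days in Δ95–99 and +EMD progenitors and at days 1 and 2 in Q133H progenitors.

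Δ95–99 progenitors had the lowest Mef2c of any group. At day 0 the mean was 1360 in wildtype and 363 in Δ95–99, a log2 ratio of -1.90, and Mef2c was the 1 member past 2-fold among 12.4% of genes. At day 1 the mean was 4224 in wildtype and 93.5 in Δ95–99, which is 44.7-fold lower (log2 ratio -5.48), and 0.481% of genes had a lower ratio. Mef2a (18581 against 7290, log2 ratio -1.35) and Mef2d (6478 against 3167, log2 ratio -1.03) were also past 2-fold at day 1, when 20.9% of genes were. At day 2 Mef2c was still 4.98-fold lower (11797 against 2368), alone among the members and beside 22% of genes. Mef2a then had means of 19268 and 16894, with a log2 ratio of -0.19, and Mef2d had a log2 ratio of -0.85.

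The first day brought a 3.18-fold drop of Mef2c in Δ95–99 progenitors, from 320 to 100.0 normalized counts, while 14% of genes passed 2-fold. Mef2a (log2 ratio 0.50) and Mef2d (0.06) stayed under the threshold. In the second day all 3 members rose past 2-fold, a threshold that 14.2% of genes passed in either direction. Mef2c rose 26.5-fold, from 99.7 to 2665, and only 0.299% of genes had a higher ratio. Mef2a rose from 7466 to 19238 (log2 ratio 1.37) and Mef2d from 3244 to 7879 (log2 ratio 1.28).

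Q133H progenitors began near wildtype and diverged at day 1. At day 0 no member passed 2-fold, against 14.8% of genes, and Mef2c had means of 1460 in wildtype and 1875 in Q133H (log2 ratio 0.36). At day 1 all 3 members were below wildtype past 2-fold, as 24.1% of genes were in either direction. Mef2a had means of 18588 and 4122, which is 4.51-fold lower and its largest difference in any comparison with wildtype. Mef2c had means of 4226 and 304 (13.9-fold lower) and Mef2d of 6479 and 2888 (2.24-fold lower). At day 2 Mef2c (11792 against 3483, 3.39-fold lower) and Mef2d (12759 against 5611, 2.27-fold lower) were past the threshold, and Mef2a had a log2 ratio of -0.87. The share of genes past 2-fold was then 33.5%, the highest of the 15 comparisons with wildtype, and 13.1% of genes had a lower ratio than Mef2d.

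Within Q133H progenitors all members were lower at day 1 than at day 0, although only Mef2c passed 2-fold, as did 12.1% of genes. Mef2c went from 1860 to 479 (log2 ratio -1.95), Mef2a from 5444 to 4315 (-0.34), and Mef2d from 4336 to 3035 (-0.51). Only 1.22% of genes had a lower ratio than Mef2c. In the second day all 3 rose past 2-fold, while 10.8% of genes passed in either direction and 6.33% were higher. Mef2c rose 6.12-fold (554 to 3393), Mef2a 2.67-fold (4500 to 12002), and Mef2d 2.01-fold (3118 to 6274, or a log2 ratio of 0.99 when scaled to the sum of the column). Pax7, a marker of muscle stem cells, lay between 0.179 and 0.458 CPM in Q133H progenitors and at 20.6 in wildtype at day 0. Of 6 myogenic markers, 4 were at least 2-fold below wildtype and 1 above in Q133H at day 1, against 14.6% and 9.49% of all genes. The part of either in these results was not tested.

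In +EMD progenitors, which received wildtype emerin, Mef2c was again far below wildtype. The means at day 0 were 1358 in wildtype and 166 in +EMD (8.14-fold lower), and Mef2c alone passed 2-fold among 17% of genes. At day 1 they were 4085 and 179, which is 22.6-fold lower, and 0.831% of genes had a lower ratio. Mef2d was also past the threshold at day 1 (6309 against 3055, log2 ratio -1.05), when 19.6% of genes were, while Mef2a had a log2 ratio of -0.70. At day 2 Mef2c was 3.82-fold lower (11119 against 2908), alone among the members and beside 18.4% of genes. Mef2a was close to wildtype at that time, with means of 18118 and 17317.

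The first day left Mef2c almost level in +EMD progenitors, at 148 and 152 normalized counts, while Mef2a had a log2 ratio of 0.78 and Mef2d of 0.08. None of the members passed 2-fold, and 17.3% of genes did. In the second day Mef2c rose 18.5-fold, from 171 to 3198, and Mef2d rose 2.46-fold, from 2915 to 7163. Of all genes, 20.5% passed in either direction and 11.0% were higher. Mef2a had a log2 ratio of 0.85.

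Over the 15 comparisons with wildtype, Mef2c was at least 2-fold lower in 8, Mef2d in 4, and Mef2a in 2, and no member was at least 2-fold higher in any. With median levels over all tables, Mef2c in EMD-/y progenitors at day 0 passed the threshold as higher, which made 9 comparisons for Mef2c. Between 7.42% and 33.5% of genes passed 2-fold in either direction in these comparisons, which share their wildtype groups and are not independent. The Mef2d count rests on ratios near the threshold, since Mef2d was 2-fold lower in a single comparison (Q133H at day 1) when means were scaled to the sum of the column. Its log2 ratio was then -0.90 in Δ95–99 at day 1, -0.97 in +EMD at day 1, and -0.93 in Q133H at day 2. Over the 12 daily transitions, Mef2c was at least 2-fold higher in 7 and lower in 2, whereas Mef2a and Mef2d were each higher in 5 and lower in none. Between 10.8% and 22.8% of genes passed in either direction in these transitions. Scaled to the sum of the column, Mef2d passed in 2 of them.

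The lines also differed in when the members rose. In wildtype progenitors 1.72 of the summed log2 change of 1.92 in Mef2a came in the first day. In Δ95–99 progenitors 0.50 of 1.87 did, although the change over both days was 3.80-fold in wildtype and 3.65-fold in Δ95–99. The change of Mef2c over both days was 8.49-fold in wildtype, 8.33-fold in Δ95–99, 19.0-fold in +EMD, 6.74-fold in S54F, 4.31-fold in EMD-/y, and 1.58-fold in Q133H progenitors. The smallest 2-day change of Mef2d was 1.41-fold in Q133H, against 4.39-fold in wildtype. The plot of the first day against the second sets both changes side by side.

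**Figure D3:**
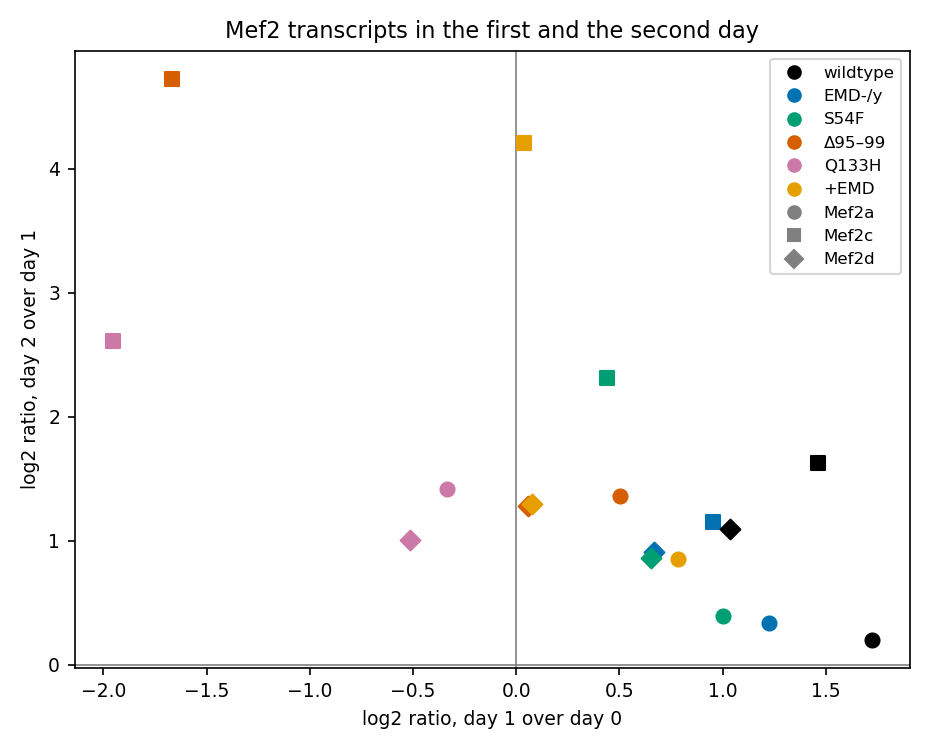
Each point is 1 member in 1 line, with the log2 ratio of day 1 over day 0 on the horizontal axis and of day 2 over day 1 on the vertical axis; colors mark lines and shapes mark members. All 18 points lie above 0 on the vertical axis, and 4 lie below 0 on the horizontal axis, the 3 members in Q133H and Mef2c in Δ95–99.

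Relative to the wildtype transition, the first-day log2 change of all 3 members was smaller in all 5 other lines. For Mef2c the difference from wildtype was -3.42 in Q133H, -3.13 in Δ95–99, -1.43 in +EMD, -1.02 in S54F, and -0.51 in EMD-/y progenitors. For Mef2a it ranged from -2.06 in Q133H to -0.50 in EMD-/y, and for Mef2d from -1.55 in Q133H to -0.37 in EMD-/y. All lines were set against the same wildtype transition. In the second day the difference turned positive for Mef2a in all 5 lines, from 0.13 in EMD-/y to 1.21 in Q133H. For Mef2c it was 3.10 in Δ95–99, 2.59 in +EMD, 0.99 in Q133H, and 0.69 in S54F, and -0.47 in EMD-/y progenitors. Mef2d was within 0.24 of wildtype in size in every line.

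The same quantities can be taken from the tables against wildtype, which checks how well separate tables close. For Mef2a and Mef2d both routes differed by at most 0.09 and 0.07 on the log2 scale. For Mef2c they differed by up to 1.05, in Q133H progenitors in the second day, where the other route gave 2.04. The level of Mef2c in Q133H at day 1 was 16.8, 25.2, and 28.9 CPM in the 3 tables that hold that group, a 1.72-fold spread, and 99.6% of genes spread less. Its spread was 1.19-fold in +EMD at day 1, 1.18-fold in Δ95–99 at day 0, and 1.17-fold in wildtype at day 0. The median gene spread by at most 1.01-fold in any group. The cause of this spread was not tested. With the tables that brought the groups closest together, the log2 ratio of Mef2c against wildtype was still -2.88 in Q133H and -5.28 in Δ95–99 at day 1, so these directions do not depend on the table used.

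**Figure D4:**
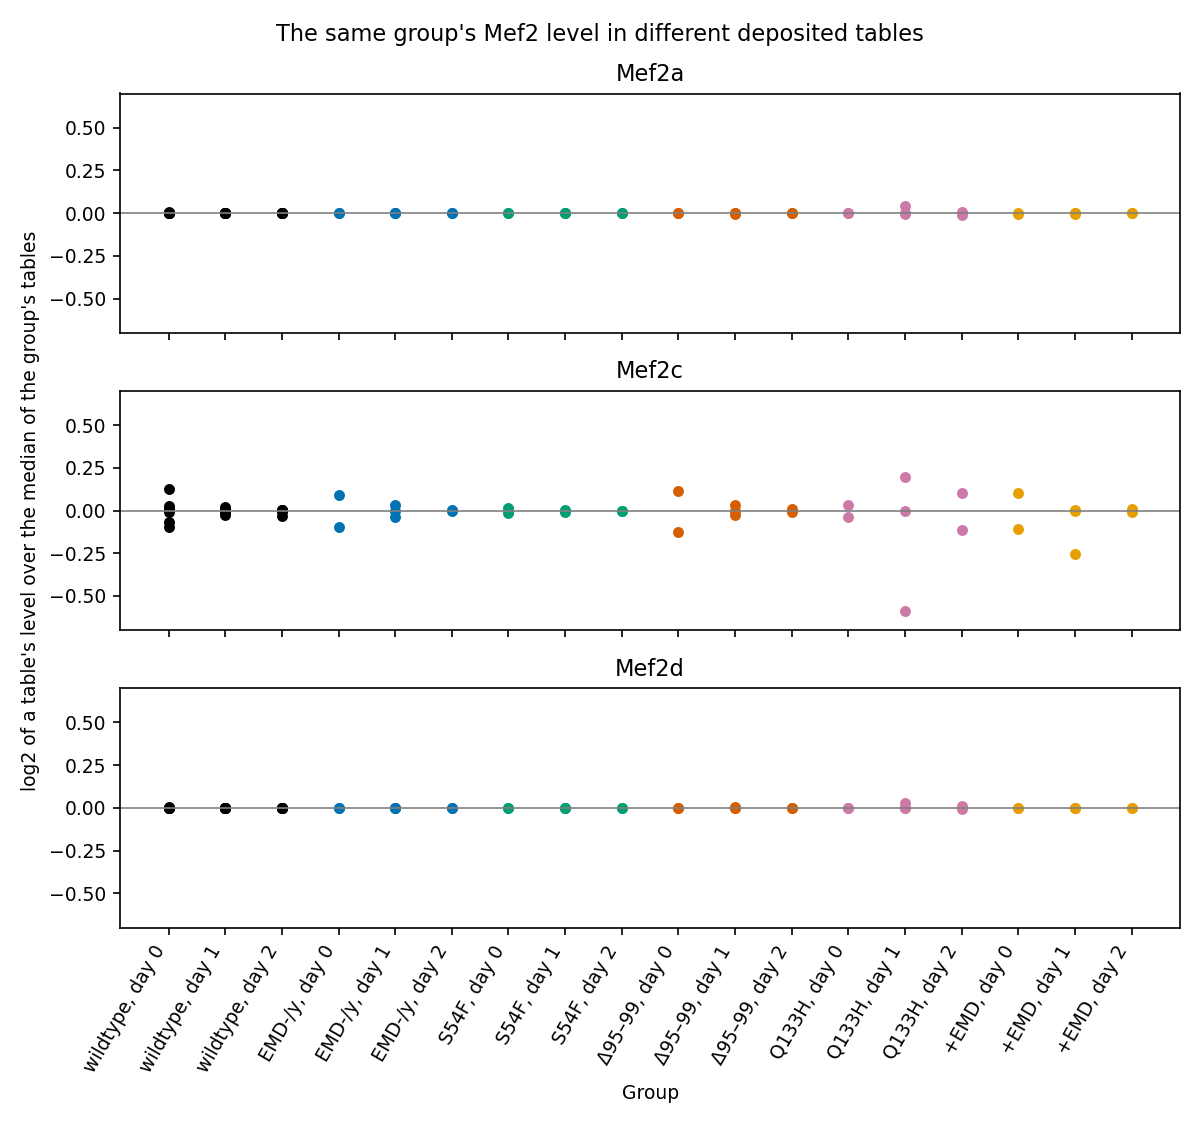
For each of the 18 groups, points give the log2 of the level in CPM in 1 deposited table over the median of all tables that hold the group, for Mef2a, Mef2c, and Mef2d. Mef2a and Mef2d stay near 0, and Mef2c spreads most in Q133H progenitors at day 1.

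The partners of the MEF2 proteins were examined next, from lists of known partners, regulators, and targets. As background for the lists at day 1, 8.84% of all genes were at least 2-fold higher and 12.1% lower in Δ95–99, 9.49% and 14.6% in Q133H, and 8.93% and 10.7% in +EMD progenitors. The counts of the short lists that follow are to be read against these shares. Myogenin (Myog), the bHLH factor of terminal differentiation, followed Mef2a most closely. At day 1 its mean was 38714 in wildtype and 10460 in Δ95–99 (log2 ratio -1.89), and 38847 and 2928 in Q133H (log2 ratio -3.73). It was 37794 and 28304 in +EMD progenitors (log2 ratio -0.42), where Mef2c was 22.6-fold lower. MyoD (Myod1), which acts upstream of myogenin, had log2 ratios of -0.74 in Δ95–99 and -1.55 in Q133H at day 1. Myf5, a factor of early progenitors, was above wildtype past 2-fold at day 1 in Δ95–99 (241 against 1514), Q133H (240 against 808), and +EMD (234 against 999). Of the bHLH list of 6 genes, the 5 above the background threshold at day 1 counted 1 higher and 1 lower in Δ95–99, 1 higher and 2 lower in Q133H, and 1 higher and 0 lower in +EMD progenitors.

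Few repressors of MEF2 passed 2-fold at day 1 in Δ95–99, Q133H, or +EMD progenitors, although the median of the list lay below that of all genes. Of 8 genes, Hdac9 alone was at least 2-fold lower at day 1 in Δ95–99 (115 against 25.1) and in +EMD (112 against 49.0), and it was lower in Q133H (115 against 31.7). Hdac9 encodes a class IIa deacetylase partner and its gene is itself a known MEF2 target. Hdac7, another class IIa deacetylase, was higher past 2-fold in Q133H at day 1 (463 against 979) and had a log2 ratio of 0.97 in Δ95–99. In wildtype progenitors Hdac9 rose in both days (log2 ratios 1.85 and 1.14) and Hdac7 fell in both (-1.18 and -1.50). The median log2 ratio of the list at day 1 was -0.31 in Δ95–99, -0.46 in Q133H, and -0.22 in +EMD progenitors, against -0.01 for all genes in each.

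Among 11 coactivators, Mamstr, which encodes a MEF2-binding coactivator of muscle genes, and Vgll2, a muscle cofactor, had the largest ratios. At day 1 Mamstr had means of 1137 in wildtype and 394 in Δ95–99, and of 1141 and 69.4 in Q133H (16.2-fold lower). Vgll2 had means of 156 and 11.3 in Δ95–99, 156 and 8.77 in Q133H, and 151 and 67.7 in +EMD progenitors. The count of coactivators at least 2-fold lower at day 1 was 2 in Δ95–99, 3 in Q133H, and 1 in +EMD, with none higher, which is no more than 2 genes above what the shares of all genes would give in 11. The histone acetyltransferase gene Crebbp was higher in +EMD progenitors at day 0 (1051 against 2238).

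Of 19 genes for kinases and calcineurin that act on MEF2, the CaM kinase genes Camk2a, Camk2b, and Camk4 had large ratios at day 1. The listed CaM kinase genes Camk1, Camk2d, and Camk2g differed less. Camk2g stood at 124 CPM in wildtype, 120 in Δ95–99, 110 in Q133H, and 114 in +EMD progenitors. Camk2d stood at 87.3, 104, 123, and 62.7 CPM in the same order. Camk2a had means of 852 in wildtype and 88.4 in Δ95–99, 854 and 30.3 in Q133H, and 829 and 274 in +EMD progenitors. Camk2b was lower past 2-fold in the same 3 comparisons and in S54F (251 against 62.1). Camk4 was higher in 4 of the 5 lines and most so in Δ95–99 (57.6 in wildtype, 198 in Δ95–99), whereas +EMD progenitors had a log2 ratio of -0.16. As a list, 3 were higher and 3 lower in Δ95–99, 3 higher and 4 lower in Q133H, and 2 higher and 3 lower in +EMD progenitors, counts that lie near the shares of all genes. The splicing regulator Rbfox1, which acts on Mef2 transcripts, had means of 305 and 93.8 in Δ95–99, 307 and 26.8 in Q133H, and 300 and 439 in +EMD at day 1. With Rbfox2, the list of splicing regulators counted 1 of 2 lower in Δ95–99, 2 of 2 in Q133H, and 0 of 2 in +EMD progenitors. The call of Rbfox2 in Q133H depends on scaling, because its levels of 427 CPM in wildtype and 222 in Q133H differ by less than 2-fold. The tables give no values per isoform, so the muscle-specific exons of the Mef2 genes were not analysed here.

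Muscle genes with known MEF2 sites formed a list of 15, which includes Myog, also counted in the bHLH list above. In wildtype progenitors 12 of 15 were at least 2-fold higher in the first day and 11 of 15 in the second, with medians of 2.41 and 1.99 on the log2 scale, while 12.5% and 8.01% of all genes were higher. At day 1, 14 of 15 were at least 2-fold below wildtype in Δ95–99 (median log2 ratio -3.04), against 12.1% of all genes. In Q133H 14 were lower and 1 higher (median -4.29), against 14.6% lower of all genes, and in +EMD 9 were lower (median -1.41), against 10.7%. In EMD-/y progenitors at day 1, 2 were higher and 0 lower (median 0.30), against 4.61% and 2.81% of all genes. In S54F 1 was higher and 2 lower (median -0.35), against 5.62% and 6.38%.

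Muscle creatine kinase (Ckm) had means of 1983 in wildtype and 70.9 in Δ95–99 at day 1, 1987 and 16.3 in Q133H, and 1926 and 382 in +EMD progenitors. The kinase gene Srpk3, whose promoter stretch is printed above, had means of 422 and 18.8 in Δ95–99 and of 423 and 3.10 in Q133H. Hrc, a calcium-binding protein of the sarcoplasmic reticulum, had means of 2996 and 418 in +EMD (7.16-fold lower). Xirp2, whose window holds the same letters as Mef2a, was the 1 gene of the list above wildtype in Q133H at day 1 (12.1 against 26.3). It was also 6.64-fold higher in EMD-/y, with a mean of 105, and had means of 14.0 and 132 in S54F progenitors.

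**Figure D5:**
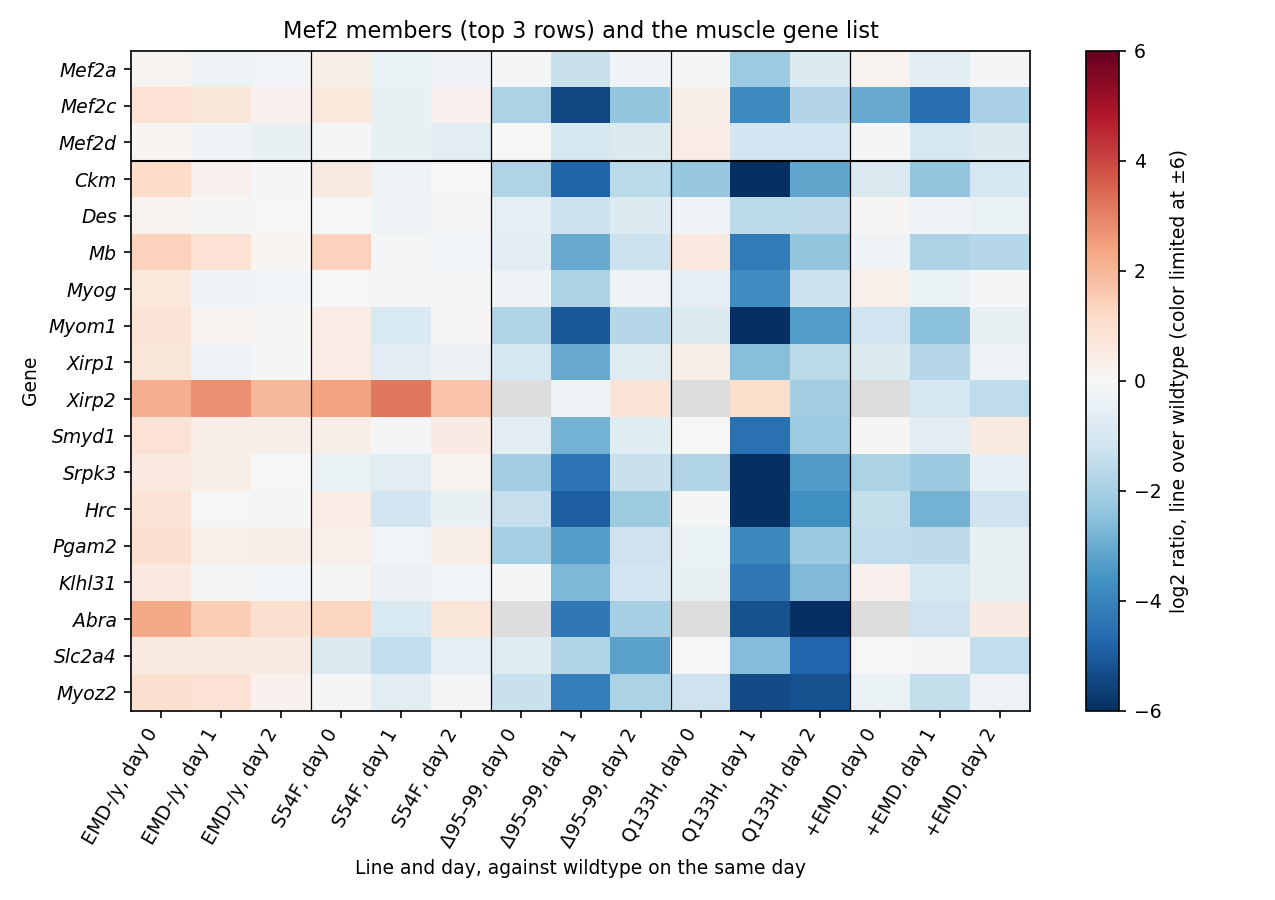
Color gives the log2 ratio of line over wildtype (limited at 6 in size) for the 3 members in the top rows and the 15 listed muscle genes below, in the 15 comparisons with wildtype; grey marks a gene under the background threshold. At day 1 in Δ95–99 and Q133H, 14 of the 15 muscle genes are at least 2-fold below wildtype.

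At day 2 fewer genes of the muscle list were below wildtype in Δ95–99 and +EMD progenitors than at day 1. Of 15 genes, 10 were at least 2-fold below wildtype in Δ95–99 (median -1.31), 15 in Q133H (median -2.67), and 4 in +EMD progenitors (median -0.44), with 8.91%, 15.5%, and 7.68% of all genes lower. Mef2c was 4.98-fold, 3.39-fold, and 3.82-fold lower in these comparisons. In the same order, the log2 ratios were -0.19, -0.87, and -0.07 for Mef2a and -0.85, -1.18, and -0.86 for Mef2d. A link between the members and the muscle genes was not tested. The glucose transporter gene Slc2a4, with means of 956 and 101 in Δ95–99, 979 and 35.4 in Q133H, and 890 and 321 in +EMD, was among the genes with the largest ratios in all 3. Of the 4 other known targets, which include Hdac9, 1 was lower at day 1 in Δ95–99, 1 in Q133H, and 2 in +EMD, with none higher. Jun, an AP-1 subunit gene, had log2 ratios of 0.94 in Δ95–99 and 0.87 in Q133H at day 2, and Ppargc1a, the gene of a mitochondrial coactivator, was higher in Q133H at day 0 (35.6 against 99.1).

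Across the 18 groups, Pearson's r of log2 levels was 0.84 between Mef2a and Mef2d, 0.77 between Mef2c and Mef2d, and 0.60 between Mef2a and Mef2c. The groups share lines, days, and normalization, and these values are descriptions. Among 11799 ranked genes, the nearest to Mef2a was Myog (r = 0.98, Spearman's rho 0.96), followed by Synrg, Hipk3, Pdpk1, and Baiap2l1, all with r of at least 0.97. The nearest to Mef2c were Art1 (0.97), Col25a1 (0.97), Frem2 (0.96), Tmem117 (0.95), and Smpx (0.95). In the same order, their lowest levels over the groups were 0.465, 2.22, 0.0886, 0.341, and 1.51 CPM. These r values therefore rest in part on groups with very low levels. Among the nearest to Mef2d were Pde4dip (0.96), Stradb (0.95), Synpo2 (0.95), and Mkln1 (0.95). No gene was among the nearest 5 of more than 1 member. Myog ranked 1340th for Mef2c, with r = 0.58.

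Markers of the labelled cell type were present in every group. All 6 myogenic markers were at 1 CPM or more in all groups except for Pax7 in Q133H progenitors, and their summed level ranged from 1426 to 5819 CPM. Of the fibroblast markers between 1 and 4 of 6 reached 1 CPM, with a summed level of 18.9 to 268. Most of that sum was the single gene Ly6a, at 264 CPM in wildtype at day 0, the group with the highest sum. Adipocyte, endothelial, and leukocyte markers summed to at most 0.613, 2.79, and 14.2 CPM. Of the neuronal and Schwann cell markers only Tubb3 reached 1 CPM, and the sum ranged from 5.06 to 98.4. In bulk RNA, fewer cells that express a gene and less of its RNA per cell cannot be told apart, which applies to every level of Mef2a, Mef2c, and Mef2d given here.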

How the data were processed

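Poly-A RNA was sequenced as paired-end 100-base reads on the DNBseq platform. Reads were filtered with SOAPnuke, mapped to mm10 with HISAT2, and DESeq2 was used to compare groups, per the labels and methods. The deposited signal values are the authors' means of normalized counts per group, normalized within each of 27 tables (15 of a line against wildtype, 12 between days), beside the transcript length. The tables also hold the authors' log2 fold changes, p-values, and calls, which were not used here. They hold 0 columns of other samples and no values per sample, so neither depth nor replicate error is known. The methods give 3 technical replicates for each of 2 biological replicates.

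Log2 ratios were computed with a pseudocount of 1, genes with a higher mean of at least 10 were the background, and 2-fold was the threshold. Levels were scaled to a column sum of 1000000 (CPM) and, to compare members, per kilobase of the listed length. Symbols were matched by NCBI gene number for between 15658 and 16323 genes per table (91.0% to 91.4%). Lists of partners, regulators, targets, and markers were written from textbook knowledge. The members and lists were chosen with earlier results of these data known. Named genes are the members, Emd, the 4 listed genes with the largest ratio of a list in a comparison, other genes of those lists, and the 5 genes with the highest correlation to a member among genes with a median of at least 1 CPM. The ratio was tested on simulated data. Shared sequence was sought with blastn 2.17.0. Alternatives were other pseudocounts, scalings, and thresholds. Python 3.11.15, numpy 2.4.6, and pandas 2.3.3 were used. Some correlated genes and promoter stretches are not reported here.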

Additional observations from a re-analysis of the deposited data

How the results depend on the processing

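No paired analysis was possible because the tables give group means and no values per sample, and for the same reason no replicate could be left out. With a fold threshold of 1.5 in place of 2, the comparisons with wildtype past the threshold rose from 2 to 4 for Mef2a and from 4 to 7 for Mef2d, and the daily transitions of Mef2d from 5 to 9. With means divided by the sum of their column, Mef2d passed in 1 comparison with wildtype and 2 transitions. It passed in 1 comparison with CPM medians over all tables, and in 1 comparison and 2 transitions with the levels of the tables that bring the groups closest, an alternative chosen after seeing the data. With CPM medians, Mef2c passed in 9 comparisons in place of 8, the added one being higher in EMD-/y at day 0. Division by the column sum moved the median of all genes by between -0.27 and 0.25 on the log2 scale, and by over 0.1 in 9 of 27 tables. The sign of the Mef2d ratio in Δ95–99 at day 0 (-0.02) turned with this scaling (0.02). The transition of Mef2c in Q133H minus wildtype from day 1 to day 2 was 2.04 from the tables against wildtype, and that of Mef2d in Δ95–99 from day 0 to day 1 was -1.02, both then past 1 in size. The other 28 transition differences kept their direction and their side of the threshold. No pseudocount, a pseudocount of 10, and centring on the median of all genes left all 6 counts of the members within 1.5 times. The counts of all genes past 2-fold stayed within 1.5 times in all 27 tables without the filter, without predicted genes, and without a pseudocount. Ranked by Spearman's rho, 3, 1, and 0 of the 5 genes nearest to Mef2a, Mef2c, and Mef2d were kept. Depth per sample is unknown.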
